A study of Homo sapiens with 2 samples.

Results

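The proteasome genes described here are the 43 genes of the deposited transcript table whose symbols run from PSMA to PSMG followed by a number, without the immunoproteasome genes PSMB8, PSMB9 and PSMB10. The table holds 24124 genes in all. Poly(A) RNA of SAS cells was sequenced. SAS is an established cell line from a human oral cancer. ASC cells are SAS cells with a stable pLKO.AS2 vector that carries ASC, the adaptor protein of inflammasomes, and control cells are SAS cells with the vector alone. Both were grown in DMEM with 10% serum, 200 μg/ml G418 and 2 μg/ml puromycin. Each group had 1 library, and the labels do not say whether a line was a pool or a clone. No difference below therefore has a replicate check, and no p-value is given. In bulk RNA a difference in every cell and one in a part of the cells cannot be told apart.

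The proteasome is the protease that degrades proteins tagged with ubiquitin. Its 20S core is a stack of rings, with outer rings of alpha subunits that gate the entrance and inner rings of beta subunits that hold the active sites. The 19S particle caps the core. Its base carries a ring of ATPases that unfold substrates, and its lid of non-ATPase subunits includes the enzyme that removes the ubiquitin chain. Other caps, the activators, open the core without ubiquitin, and dedicated chaperones assemble core and cap. Transcription of the subunit genes is known to be raised together by the factor NFE2L1 when proteasome activity falls short.

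PYCARD, the gene that encodes ASC, had 266.5 RPKM in ASC cells against 1.36 RPKM in control cells, so the labels match the construct. RPKM are reads scaled to transcript length and to library depth, summed here over the transcripts of a gene. The listed reads were 31426491 in ASC cells and 31289581 in control cells. A total of 12471 genes reached 1 RPKM in either library and were compared, all 43 proteasome genes among them. Log2 ratios are those of the ASC over the control library on the log2(RPKM + 1) scale, and intervals are exact 95% binomial intervals of the log2 ratio of depth-scaled reads, which cover counting error only. All 7 epithelial markers were present and they differed in direction. At least 1.2-fold higher in ASC cells were 4 of them and at least 1.2-fold lower 1, against 16.2% and 16.4% of all compared genes. KRT14 had 82.3 RPKM in ASC against 61.2 RPKM in control cells and CDH1 82.6 RPKM in ASC against 65.6 RPKM in control cells. TP63 had 46.0 RPKM in ASC against 54.5 RPKM in control cells. KRT8 had 1136 RPKM in ASC against 763.0 RPKM in control cells and KRT18 1363 RPKM in ASC against 967.1 RPKM in control cells, whereas KRT5 had 311.0 RPKM in ASC against 421.0 RPKM in control cells and EPCAM 193.5 RPKM in ASC against 193.4 RPKM in control cells. The blood, endothelial and fibroblast markers PTPRC, PECAM1, VWF, PDGFRA and PDGFRB were under 1 RPKM in either library, and CD68, the remaining blood marker found, had 24.1 RPKM in ASC against 25.9 RPKM in control cells.

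Most proteasome genes were slightly higher in ASC cells, and the classes of subunit differed in how far. Of the 43 genes, 33 had a log2 ratio above 0 and 10 below it. Among all compared genes 52.0% lay above 0 and 48.0% below. Among the 5350 genes whose mean level lay in the range of the proteasome genes, from 13 to 283 RPKM, 55.9% lay above 0 and 44.1% below. The median log2 ratio of the 43 genes was 0.08, against 0.01 for all compared genes and 0.03 for genes in the level range. The differences were small. The log2 ratios ran from -0.32 for PSME4 to 0.36 for PSME2, and none of the 43 passed 2-fold, as 0.882% of all compared genes and 0.598% of those at these levels did. At least 1.2-fold higher in plain RPKM were 8 of the 43 genes, or 18.6%, near the 16.2% of all compared genes and the 11.6% of those at these levels. At least 1.2-fold lower was 1 gene, or 2.33%, against 16.4% and 8.92%. The interval of the read ratio lay above 0 for 22 genes, or 51.2%, against 30.2% of all compared genes and 39.1% at these levels. It lay below 0 for 4 genes, or 9.30%, against 25.6% and 27.5%. Together the 43 genes held 0.531% of the listed reads in ASC cells and 0.4995% in control cells.

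**Figure D1:**
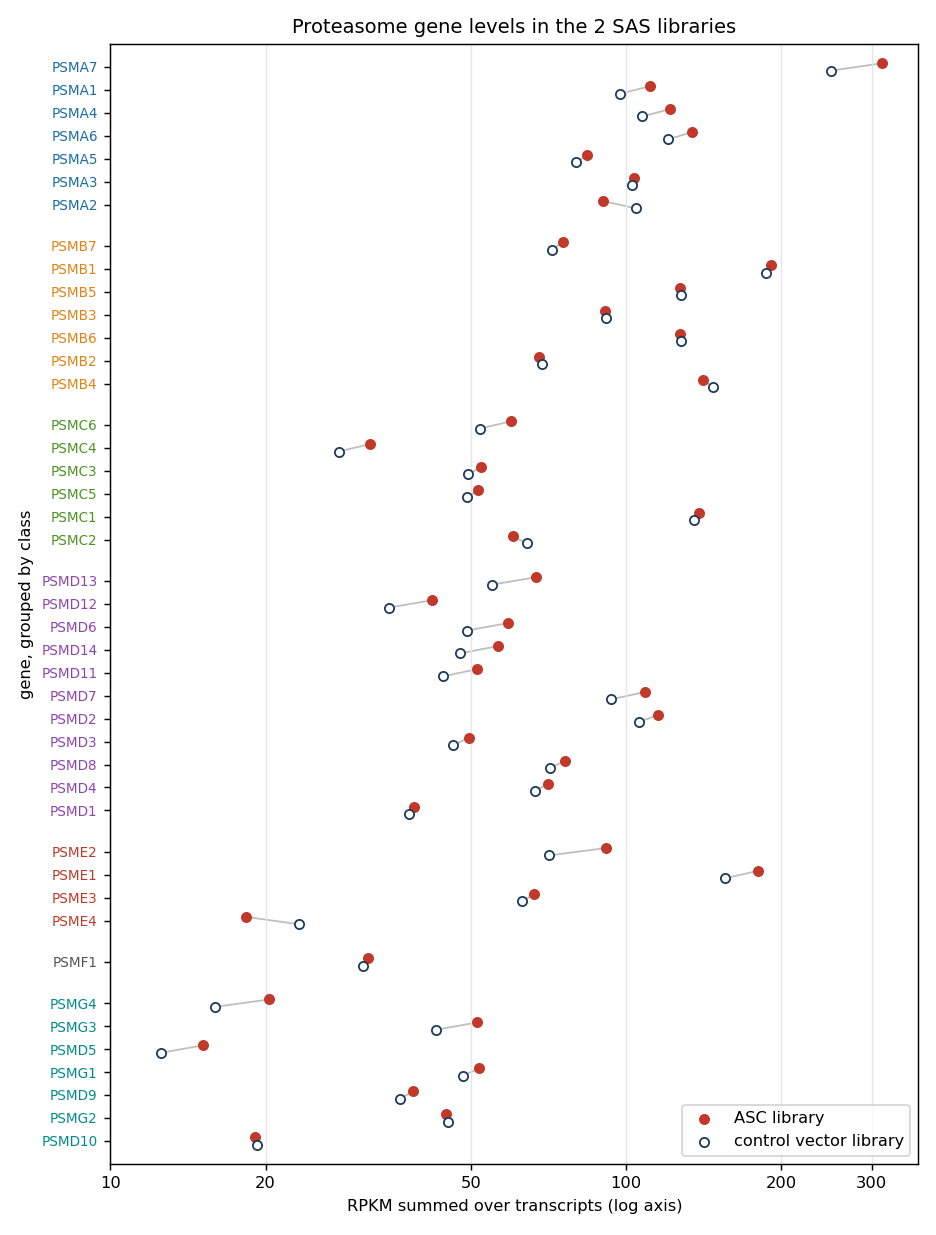
RPKM of each of the 43 genes (log axis) in ASC cells (filled) and control cells (open), grouped by class from the 20S alpha genes at the top to the assembly chaperones at the bottom. PSMA7 is the highest gene at 314.5 RPKM in ASC against 250.5 RPKM in control cells, and PSMD5 the lowest at 15.1 RPKM in ASC against 12.6 RPKM in control cells.

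The alpha ring genes were mostly higher in ASC cells, with PSMA7 in front and PSMA2 on the other side. Of 7 alpha genes, 6 lay above 0, with a median log2 ratio of 0.16. PSMA7 (ENSG00000101182.14, chr20:62136735-62143440 of hg38, minus strand) had 314.5 RPKM in ASC cells and 250.5 RPKM in control cells, the highest level of the 43 genes in either library. Its read ratio was 0.33 (interval 0.29 to 0.37), from 11048.9 estimated reads in ASC against 8839.1 estimated reads in control cells. PSMA1 had 111.6 RPKM in ASC against 97.6 RPKM in control cells, PSMA4 121.7 RPKM in ASC against 107.6 RPKM in control cells and PSMA6 134.5 RPKM in ASC against 120.5 RPKM in control cells. Log2 ratios of these genes lay between 0.16 and 0.19 and their intervals lay above 0. PSMA5 had 84.2 RPKM in ASC against 79.9 RPKM in control cells, but its log2 ratio was -0.14 when coding transcripts alone were summed. That value rests on few reads. The coding transcripts ENST00000271308.8 and ENST00000538610.5 held 2.26% and 1.47% of PSMA5 reads in ASC cells, and 2.08% and 2.03% in control cells. The noncoding transcript ENST00000490870.5 held 78.0% in ASC cells against 76.8% in control cells. PSMA3 had 103.8 RPKM in ASC against 102.7 RPKM in control cells with an interval of -0.05 to 0.08. The antisense locus PSMA3-AS1, which overlaps PSMA3, had 1163 estimated reads in ASC against 966 estimated reads in control cells, and the library kit does not mark strand, so reads of the overlap cannot be told apart. PSMA2 had 90.2 RPKM in ASC against 104.4 RPKM in control cells and was the one alpha gene below 0, with a log2 ratio of -0.21 and a read interval of -0.30 to -0.18. Summed over the ring, the alpha genes held 960.4 RPKM in ASC against 863.2 RPKM in control cells, a ratio of 1.11. Each alpha subunit stands once in its ring, but the RPKM of the genes spanned 3.74-fold in ASC cells and 3.13-fold in control cells.

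The beta ring genes were level between the libraries. Summed RPKM came to 821.1 in ASC cells and 822.4 in control cells, a ratio of 0.998. Of 7 beta genes, 2 lay above 0 and 5 below, with a median of -0.01 and a range of -0.06 to 0.07, and none reached 1.2-fold either way. The catalytic genes were among them. PSMB5, which carries the chymotrypsin-like site, had 127.4 RPKM in ASC cells and 127.7 RPKM in control cells, with a read interval of -0.05 to 0.06. PSMB6, with the caspase-like site, had 127.1 RPKM in ASC against 127.9 RPKM in control cells (interval -0.07 to 0.06), and PSMB7, with the trypsin-like site, had 75.5 RPKM in ASC against 71.9 RPKM in control cells (interval -0.01 to 0.15). The intervals of PSMB5 and PSMB6 hold no log2 ratio beyond 0.07 in either direction. Of the subunits without an active site, PSMB1 had 190.8 RPKM in ASC against 187.0 RPKM in control cells, PSMB2 67.8 RPKM in ASC against 68.9 RPKM in control cells and PSMB3 91.1 RPKM in ASC against 91.4 RPKM in control cells. PSMB4 had 141.4 RPKM in ASC against 147.7 RPKM in control cells, and its interval of -0.12 to -0.00357 was the only one of the class that left out 0. PSMB2 changed side with the scale, at -0.02 in RPKM and 0.03 in depth-scaled reads. PSMB5 did so too, at -0.003 in RPKM and 0.007 in depth-scaled reads.

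The inducible partners of the catalytic genes, which replace them in the immunoproteasome, were higher in ASC cells in each case. PSMB8 had 54.8 RPKM in ASC against 40.9 RPKM in control cells, PSMB9 20.1 RPKM in ASC against 12.8 RPKM in control cells and PSMB10 22.9 RPKM in ASC against 13.5 RPKM in control cells. The RPKM of PSMB8 came to 43.0% of that of PSMB5 in ASC cells against 32.01% in control cells. PSMB9 came to 15.8% of PSMB6 in ASC cells against 10.0% in control cells, and PSMB10 to 30.3% of PSMB7 in ASC cells against 18.8% in control cells. In each pair the constitutive gene had the higher level in either library.

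The 19S ATPase genes lay between the alpha and beta rings in their median. Of 6, 5 had log2 ratios above 0, with a median of 0.07. With the highest transcript of each gene alone, the ATPase median was 0.0085, below the beta median of 0.0195, so that the order turned. All genes compared by this measure had a median of 0.0199. Summed RPKM was 394.4 in ASC cells against 378.5 RPKM in control cells. PSMC6 had 59.9 RPKM in ASC against 52.1 RPKM in control cells and PSMC4 31.8 RPKM in ASC against 27.7 RPKM in control cells, with log2 ratios of 0.20 and 0.19 and intervals that start at 0.09 and 0.08. PSMC3 had 52.3 RPKM in ASC against 49.4 RPKM in control cells (interval 0.01 to 0.17). PSMC5, with 51.6 RPKM in ASC against 49.3 RPKM in control cells, and PSMC1, with 138.5 RPKM in ASC against 135.8 RPKM in control cells, had intervals that span 0. PSMC2 had 60.3 RPKM in ASC against 64.2 RPKM in control cells, the only ATPase gene below 0, with a log2 ratio of -0.09 and an interval of -0.18 to -0.02. PSMC1 had the highest level of the ATPase genes in either library, although each ATPase stands once in the ring. Part of this sum was a retained-intron transcript, ENST00000555679.5, with 53.5 RPKM in ASC against 50.8 RPKM in control cells. The main coding transcript of PSMC1, ENST00000543772.2, had 79.3 RPKM in ASC against 78.8 RPKM in control cells. A processed pseudogene of PSMC1, PSMC1P1, was listed with 463.2 estimated reads in ASC against 461.2 estimated reads in control cells, so reads of PSMC1 may be shared with it.

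The 11 19S non-ATPase genes with PSMD symbols lay above 0, whereas SEM1, a lid gene outside the naming rule, lay below it. The log2 ratios of the 11 ran from 0.03 to 0.28, with a median of 0.22, and 9 had intervals above 0. Their summed level was 735.3 RPKM in ASC cells against 652.2 RPKM in control cells, a ratio of 1.13. PSMD13 had 66.9 RPKM in ASC against 55.0 RPKM in control cells, 1.22-fold higher, with an interval of 0.19 to 0.33. PSMD12 had 42.1 RPKM in ASC against 34.8 RPKM in control cells, and PSMD6 had 59.0 RPKM in ASC against 49.1 RPKM in control cells. These structural lid genes were the 3 of the class that reached 1.2-fold, or 27.3%. Among all compared genes 16.2% were that much higher, and 11.6% of those in the level range. With coding transcripts alone the log2 ratio was 0.23 for PSMD13, 0.16 for PSMD12 and 0.24 for PSMD6. PSMD14, the deubiquitinating enzyme of the lid, had 56.5 RPKM in ASC against 47.6 RPKM in control cells, with a log2 ratio of 0.24 and an interval of 0.17 to 0.30. Its partner in the lid, PSMD7, had 108.9 RPKM in ASC against 93.7 RPKM in control cells (log2 ratio 0.22) and PSMD11 had 51.5 RPKM in ASC against 44.2 RPKM in control cells (log2 ratio 0.22). PSMD3 had 49.6 RPKM in ASC against 46.2 RPKM in control cells and PSMD8 76.3 RPKM in ASC against 71.1 RPKM in control cells, both with log2 ratios of 0.10.

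Among genes with PSMD symbols, those that sit in the base stood lower by summed RPKM than most of the lid. This split was made after the values were known. The 8 lid genes had a median of 0.23 and a range of 0.10 to 0.28, SEM1 not included. The base genes PSMD2, PSMD4 and PSMD1 had log2 ratios of 0.12, 0.08 and 0.03. With the highest transcript alone the order was mixed. The base genes PSMD4 and PSMD2 then came to 0.12 and 0.11. Below them stood the lid genes PSMD3, PSMD6, PSMD11 and PSMD8, at 0.10, 0.07, 0.06 and 0.01. The lid genes PSMD12, PSMD14, PSMD7 and PSMD13 came to 0.41, 0.22, 0.21 and 0.13, and the base gene PSMD1 to -0.05. PSMD2, a scaffold of the base with the highest RPKM of the class, had 115.2 RPKM in ASC cells against 106.0 RPKM in control cells. PSMD4, a ubiquitin receptor, had 70.5 RPKM in ASC against 66.7 RPKM in control cells, and PSMD1 had 38.8 RPKM in ASC against 37.9 RPKM in control cells with an interval of -0.04 to 0.09.

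**Figure D2:**
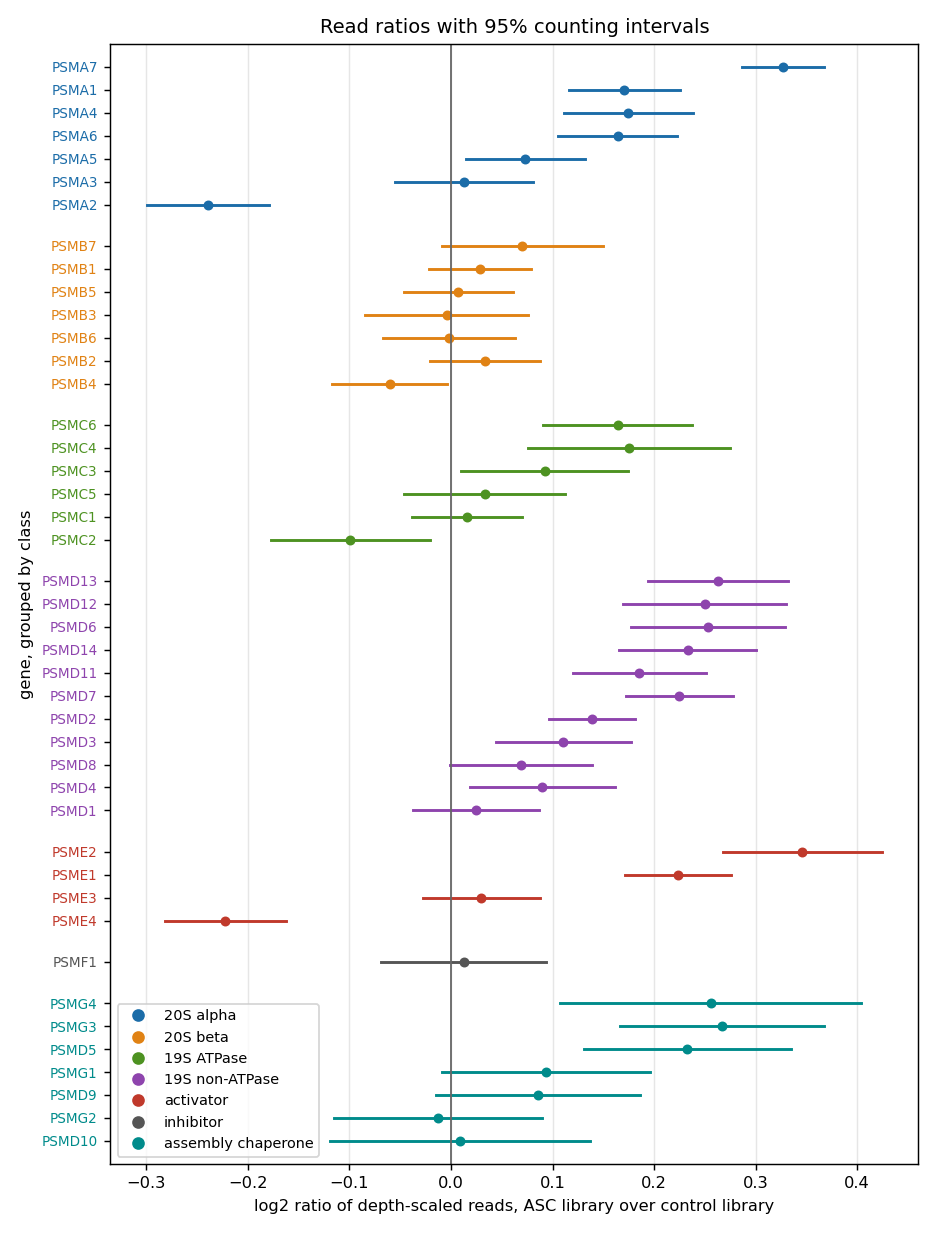
Log2 ratio of depth-scaled reads, ASC over control library, for each gene (point) with its exact 95% counting interval (line), grouped and coloured by class. Intervals of 9 of the 11 19S non-ATPase genes lie above 0, while those of 6 of the 7 20S beta genes span 0.

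The activator genes went in different directions. PSME1 and PSME2 encode the PA28 ring, which interferon-gamma is known to induce. PSME2 had 91.5 RPKM in ASC cells and 71.0 RPKM in control cells, 1.29-fold higher, and its log2 ratio of 0.36 was the highest of the 43 genes. Its interval ran from 0.27 to 0.42. PSME1 had 180.1 RPKM in ASC against 155.5 RPKM in control cells, with a log2 ratio of 0.21 and an interval of 0.17 to 0.28. The 2 genes lie on chromosome 14 with 4395 bases between their listed transcripts, PSME1 from 24136158 to 24138967 on the plus strand and PSME2 from 24143362 to 24147570 on the minus strand (hg38). PSME2P2, a pseudogene of PSME2, had 1.94 RPKM in ASC against 2.00 RPKM in control cells. PSME3, which encodes the nuclear PA28 gamma ring, had 66.4 RPKM in ASC against 62.9 RPKM in control cells, with a read interval of -0.03 to 0.09.

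PSME4, which encodes the large activator PA200 (chr2:53864067-53970840, minus strand), had 18.3 RPKM in ASC cells against 23.2 RPKM in control cells. It was 1.26-fold lower, the only one of the 43 genes that was 1.2-fold lower, with a log2 ratio of -0.32. By reads its log2 ratio was smaller in size, at -0.22 (interval -0.28 to -0.16). PSMF1, which encodes the inhibitor PI31, had 31.6 RPKM in ASC against 30.9 RPKM in control cells, and its interval of -0.07 to 0.09 spanned 0.

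Among the assembly chaperones 5 of 7 lay above 0, with a median of 0.11 and summed levels of 241.5 RPKM in ASC against 220.5 RPKM in control cells. The median was 0.04 after subtraction of chromosomal neighbours, and 0.18 with PSMD5, PSMD9 and PSMD10 left out of the class. The chaperones of the core work in pairs, PSMG1 with PSMG2 and PSMG3 with PSMG4. PSMG4 had 20.3 RPKM in ASC cells and 15.96 RPKM in control cells (log2 ratio 0.33), and PSMG3 had 51.4 RPKM in ASC against 42.9 RPKM in control cells (log2 ratio 0.26). PSMG1 had 52.0 RPKM in ASC against 48.2 RPKM in control cells and PSMG2 44.9 RPKM in ASC against 45.1 RPKM in control cells, and the intervals of both span 0. Of the base chaperones, PSMD5 had 15.1 RPKM in ASC against 12.6 RPKM in control cells, with a log2 ratio of 0.25 and an interval of 0.13 to 0.33. PSMD9 had 38.7 RPKM in ASC against 36.5 RPKM in control cells (interval -0.02 to 0.19). PSMD10, also known as gankyrin, had 19.1 RPKM in ASC against 19.3 RPKM in control cells (interval -0.12 to 0.14). PSMG4, PSMG3 and PSMD5 reached 1.2-fold, PSMG3 by the narrowest margin. PSMD5 overlaps the antisense locus PSMD5-AS1, with 391 estimated reads in ASC against 382 estimated reads in control cells.

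**Figure D3:**
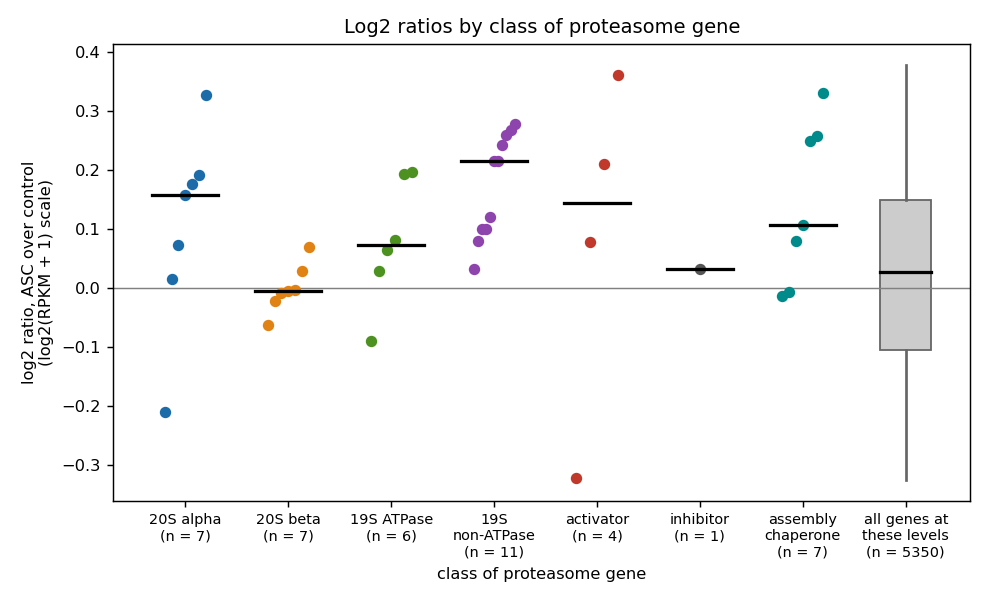
Log2 ratio of each gene on the log2(RPKM + 1) scale by class (points, with the class median as a bar), beside all 5350 compared genes in the same level range (box from the lower to the upper quartile, line at the median, whiskers at the 5th and 95th percentiles). The 20S beta genes sit between -0.06 and 0.07 and the 19S non-ATPase genes between 0.03 and 0.28.

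Position on the chromosome was set beside these ratios, since the neighbours of some of these genes also differed between the libraries. For each gene the median log2 ratio of its 50 nearest compared genes was taken. Neighbours of PSMA7 on chromosome 20 had a median of 0.22, and PSMA7 lay 0.11 above it. Neighbours of PSMA2 on chromosome 7 had a median of -0.15, which left -0.06. PSMC2, also on chromosome 7, had neighbours at -0.22 and lay 0.13 above them, so that its direction turned. PSMG3 near the other end of chromosome 7 had neighbours at 0.33 and lay 0.08 below them, which turned its direction too. PSME4 on chromosome 2 had neighbours at -0.20 and lay 0.12 below them. The 19S non-ATPase genes lie on 7 chromosomes, and their neighbours had medians between -0.04 and 0.10. All 11 remained above 0 after subtraction, with a median of 0.16, where 50.1% of all compared genes and 53.9% of those in the level range lay above 0. Of the beta genes, 2 of 7 lay above 0 after subtraction, with a median of -0.02. PSME1 and PSME2 share neighbours with a median of -0.01.

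**Figure D4:**
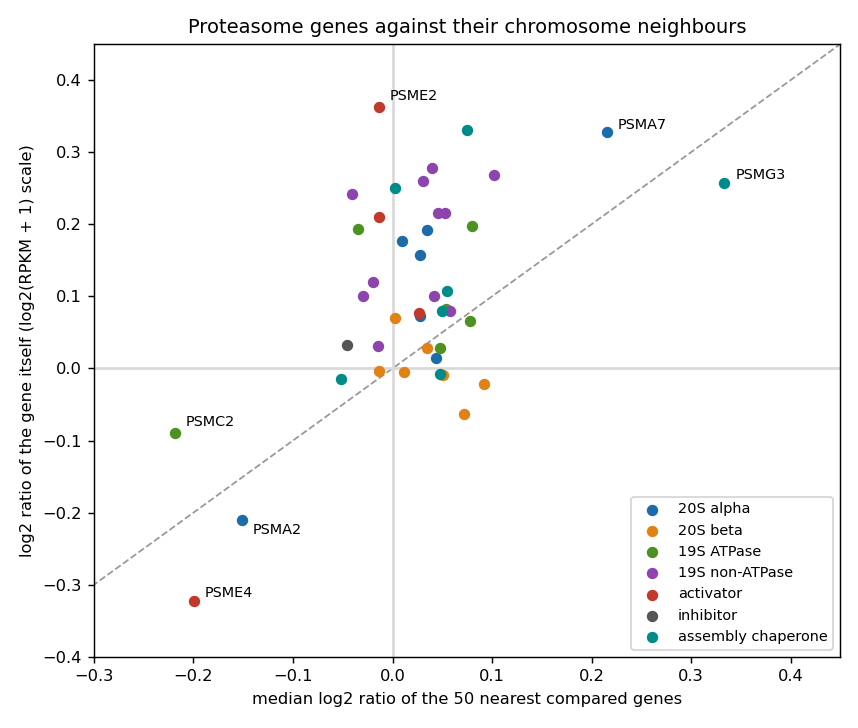
Log2 ratio of each proteasome gene (vertical) against the median log2 ratio of its 50 nearest compared genes on the chromosome (horizontal), coloured by class, with the line of equal values dashed. PSMA7, PSMG3, PSMC2, PSMA2 and PSME4 have neighbours that differ between the libraries by 0.15 or more, whereas PSME2 has neighbours at -0.01.

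The table lists 417 transcripts of the 43 genes, of which GENCODE 29 types 193 as protein-coding, 130 as retained-intron and 53 as nonsense-mediated decay transcripts. Coding transcripts held 86.3% of the reads of these genes in ASC cells and 86.5% in control cells. Decay transcripts held 4.64% in ASC cells against 4.29% in control cells, and retained-intron transcripts 4.88% in ASC cells against 4.81% in control cells. No transcript had a share of the reads of its gene that differed by 10 percentage points. Estimated reads of similar transcripts carry error that the intervals leave out.

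In the 19S particle the gene ratios rested in part on transcripts other than the main coding one. For PSMC4 the coding transcript ENST00000157812.6 was level, at 19.8 RPKM in ASC cells and 20.1 RPKM in control cells. Its share of PSMC4 reads was 64.7% in ASC cells (interval 62.4% to 66.9%) against 73.8% in control cells (interval 71.6% to 76.0%), the widest difference among the 417. The retained-intron transcript ENST00000593455.5 had 7.90 RPKM in ASC against 5.39 RPKM in control cells, and a second coding transcript, ENST00000455878.2, had 2.32 RPKM in ASC against 0.331 RPKM in control cells. For PSMD6 the coding transcript ENST00000295901.8 had 33.1 RPKM in ASC against 31.5 RPKM in control cells, and its share was 54.6% in ASC cells against 61.9% in control cells. For PSMD12 the transcript with most reads is typed as a decay transcript, ENST00000584008.5, with 20.9 RPKM in ASC against 15.5 RPKM in control cells. The highest transcript of PSMD13, ENST00000525665.5, is also typed as a decay transcript. It had 21.4 RPKM in ASC against 19.4 RPKM in control cells, a log2 ratio of 0.13. Over the 19S non-ATPase genes, decay transcripts had 3658.4 reads in ASC against 2823.2 reads in control cells, a log2 ratio of 0.38 (interval 0.31 to 0.45), and coding transcripts 41379.6 reads in ASC against 37520 reads in control cells, a log2 ratio of 0.15 (interval 0.13 to 0.17). With only the highest transcript of each gene, 10 of the 11 genes lay above 0 and the median was 0.11. The main coding transcript of PSMD14 held 98.2% of its reads in ASC cells against 98.7% in control cells, with a log2 ratio of 0.22. That of PSMD7 held 93.1% in ASC cells against 93.8% in control cells, with a log2 ratio of 0.21. The beta genes lay at a median of 0.02 by the same measure, with 5 of 7 above 0. The median of all genes compared by this measure was also 0.02.

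The promoters of the proteasome genes were searched for motifs of factors known to act on housekeeping or proteasome genes. RefSeq windows (GRCh38.p14) of 250 bases before to 50 bases after a start site were found for 37 of the 43 genes. NFE2L1 binds antioxidant response elements, whose core reads TGACNNNGC. A match is shown only where its whole stretch, with 20 bases on either side, lies upstream of every listed transcript of the gene. The match of PSMD3 (log2 ratio 0.10) also lies upstream, but its stretch reaches the first listed transcript, so it is left out. The stretches below are on the strand of the gene, with the 9 bases of the match in capitals.
PSMD12: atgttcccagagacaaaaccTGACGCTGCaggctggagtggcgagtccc
PSMD5: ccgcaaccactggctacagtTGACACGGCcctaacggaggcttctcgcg
PSME1: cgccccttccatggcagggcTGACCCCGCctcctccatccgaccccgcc
PSMD9, upstream match: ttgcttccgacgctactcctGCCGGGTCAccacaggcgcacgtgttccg
PSMD9, downstream match: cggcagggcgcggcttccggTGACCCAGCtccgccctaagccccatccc
PSMB3: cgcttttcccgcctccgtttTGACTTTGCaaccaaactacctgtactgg
PSME4: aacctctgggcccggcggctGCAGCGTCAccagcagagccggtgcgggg
The matches of PSME4 and the upstream one of PSMD9 read in the reverse direction. The stretches lie at chr17:67366714-67366762 (minus strand) for PSMD12, chr9:120843028-120843076 (minus strand) for PSMD5, chr14:24136088-24136136 (plus strand) for PSME1, chr12:121888621-121888669 and chr12:121888668-121888716 (plus strand) for PSMD9, chr17:38752617-38752665 (plus strand) for PSMB3 and chr2:53970999-53971047 (minus strand) for PSME4.

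The genes shown with a match had log2 ratios from 0.27 for PSMD12 and 0.25 for PSMD5, through 0.21 for PSME1, 0.08 for PSMD9 and -0.01 for PSMB3, to -0.32 for PSME4. Counting both strands and the whole window, TGACNNNGC was found in 12 of the 37 genes, or 32.4%, against 14.8% of the 13154 windows of compared genes and 13.3% of all 35116 windows. Of those 12 genes, 9 had log2 ratios above 0 and 3 below, with a median of 0.10, against 0.08 for genes without a match. The ETS motif CCGGAAGT was found in 9 of 37, or 24.3%, against 7.87% of the windows of compared genes and 4.14% of all windows, with medians of 0.10 and 0.09 with and without it. CCAAT, the box bound by NF-Y, was found in 17 of 37, or 45.9%, against 35.0% and 34.6%, with medians of 0.07 and 0.18. The GC box GGGCGG was found in 25 of 37, or 67.6%, against 67.4% of the windows of compared genes and 44.95% of all windows, with medians of 0.16 and 0.05. Where a gene has several windows, that nearest to the start of its highest transcript was used, and matches of different motifs may overlap. The start site of the window lay within 100 bases of the start of that transcript in 27 of the 37 genes. For PSMC2 it lay 7213 bases away, so some windows are not at the start of the highest transcript. A match describes letters in the window and not binding. Each of the 4 motifs was found in genes above 0 and in genes below it.

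Partners of the particle that the naming rule leaves out included a lid gene on the other side. SEM1, which encodes the smallest lid subunit, had 84.5 RPKM in ASC cells against 136.9 RPKM in control cells. It was 1.62-fold lower, with a log2 ratio of -0.69, a read interval of -0.79 to -0.64, and -0.55 after subtraction of its neighbours on chromosome 7. The 2 main coding transcripts of SEM1 differed alike, at 33.3 RPKM in ASC against 55.2 RPKM in control cells and at 49.7 RPKM in ASC against 79.4 RPKM in control cells. ADRM1, a ubiquitin receptor of the 19S particle, had 107.0 RPKM in ASC against 87.3 RPKM in control cells, with a log2 ratio of 0.29, which was 0.08 after subtraction of its neighbours on chromosome 20. Of the 11 partner genes, 8 lay above 0 and 3 below, with a median of 0.09, where 52.0% of all compared genes lay above 0. The assembly factor POMP, which matures the core, had 87.1 RPKM in ASC against 94.1 RPKM in control cells.

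Genes that deliver substrates and those that regulate proteasome transcription were mixed. Of 10 shuttle and p97 genes found, 7 lay above 0 with a median of 0.12. For this list and those below, the share above 0 among all compared genes was 52.0%. RAD23B, a shuttle factor that carries ubiquitinated proteins to the particle, had 87.4 RPKM in ASC against 65.1 RPKM in control cells (log2 ratio 0.42), and NPLOC4, a cofactor of the unfoldase p97, had 17.4 RPKM in ASC against 14.3 RPKM in control cells (log2 ratio 0.27). Of 10 genes for regulators, 6 lay above 0 with a median of 0.08. NFE2L1 itself had 44.2 RPKM in ASC cells and 37.5 RPKM in control cells, a log2 ratio of 0.23 with a read interval of 0.18 to 0.28. The regulators farthest from 0 were MAFK, a small MAF partner of such factors, with 30.0 RPKM in ASC against 16.8 RPKM in control cells (log2 ratio 0.80), and NFE2L2, which encodes NRF2, with 59.5 RPKM in ASC against 82.7 RPKM in control cells (log2 ratio -0.47). Of 6 ubiquitin and activating enzyme genes, 2 lay above 0 and 4 below, with a median of -0.13. The polyubiquitin gene UBB had 458.2 RPKM in ASC against 542.4 RPKM in control cells. RPS27A, a ubiquitin and ribosomal protein fusion, had 1618 RPKM in ASC against 2029 RPKM in control cells (log2 ratio -0.33). After subtraction of chromosomal neighbours, MAFK came to 0.47, NFE2L2 to -0.38 and NFE2L1 to 0.20. By the same measure RAD23B came to 0.38, NPLOC4 to 0.17, UBB to -0.29 and RPS27A to -0.15.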

How the data were processed

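Per the file headers, the deposited table gives, for each of the 2 libraries and each transcript, estimated counts, fractional and without depth scaling, beside RPKM values that the authors computed. Per the submitters' processing notes the genome is hg38. The aligner and quantifier are not given in the sources consulted, and the TruSeq kit named in the labels does not mark strand. The ASC sample was assigned by its vector label, as the genotype label is ambiguous. GENCODE 29 gave transcript types (98.4% of identifiers had the same version, with equal starts and stops 1 base beyond the annotation, which was taken off the ends given here). In 284 of 285 lines, gene names that a spreadsheet had turned into dates were restored. RPKM was summed per gene, genes were compared from 1 RPKM upward in either library, and log2 ratios used a pseudocount of 1 RPKM. Intervals are Clopper-Pearson intervals of rounded estimated reads, scaled by the depth that the RPKM values imply (35660975 reads for ASC and 35780293 for control). They cover counting error only.

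With 1 library per group, nothing was tested between conditions. Every proteasome gene is described. Of the lists of partners, shuttle factors, regulators and ubiquitin genes, the 2 genes farthest from 0 are named, with POMP, NFE2L1 and the epithelial markers given added after their values were seen. Values of some listed genes are not reported here. Of the genes listed, UBQLN2, CD3E and DCN were not found under their symbols or older symbols, so they have no values here. Members and lists were chosen with earlier results of these data known. The interval and neighbour steps were tested on simulated data. Alternatives were other pseudocounts, filters and scalings, CPM, the highest transcript and subtraction of neighbours, and, added after the data were seen, coding transcripts alone and removal of GC or length trends. Python 3.11.15, pandas 2.3.3, scipy 1.17.1, statsmodels 0.14.6 and edgeR 4.0.16 (TMM factors) were used.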

Additional observations from a re-analysis of the deposited data

How the results depend on the processing

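No paired analysis was possible because each group has 1 library. The 33 higher and 10 lower proteasome genes came to 8 and 1 past 1.2-fold, and 4 were lower where the read interval had to leave out 0. With a GC trend or a length trend removed, 6 were lower in each case. The count of higher beta genes, 2 of 7, depended on the setting. It was 5 with the highest transcript, 4 with coding transcripts only, 5 with a GC trend removed and 5 with a length trend removed. The beta median stayed between -0.02 and 0.03 under all of these settings. With the highest transcript, coding transcripts only or either trend removed, the median of all compared genes was 0.02, against 0.01 in the main setting. The median of the 19S non-ATPase genes, 0.22, was 0.11 with the highest transcript and 0.14 with coding transcripts only. With PSMD5, PSMD9 and PSMD10 classed by symbol, 3 assembly chaperones were higher in place of 5. Among genes whose read interval left out 0, direction reversed for PSMC2 (0.13) and PSMG3 (-0.076) when neighbours were subtracted. It also reversed for PSMC4 (-0.014) with the highest transcript and for PSMA5 (-0.14) with coding transcripts only, which hold few PSMA5 reads. Counting also genes whose interval spans 0, the sign changed in 7 of 43 with the highest transcript, in 8 with neighbours subtracted, in 4 with coding transcripts only, in 4 with each of the trends removed and in 1 with CPM. The cause was not tested. Over all 43 genes, 487 ratios under another setting moved by at most the half-width of the counting interval of the gene, 25 moved by more and 4 reversed. Reads per gene, from 690 for PSMG4 in control cells to 11048.9 for PSMA7 in ASC cells, set the width of the intervals, and no replicate shows how far libraries of the same cells differ.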
